A study of Mus musculus with 39 samples.

Results

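Cyp2b10, Cyp2b9 and Cyp2b13 are mouse cytochromes P450 of the Cyp2b subfamily, described here across 4 durations of phenobarbital in the liver. Probe sets of the array were taken when one of these genes was their only symbol in the platform annotation, which gave 3 of 18193 genes and 5 of 45101 probe sets: 3 for Cyp2b10, called the first, the second and the third here in order of their mean signal, and 1 each for Cyp2b9 and Cyp2b13. Not one probe set listed a member together with another gene (0 in the annotation). The RNA came from whole liver of male B6C3F1/Crl mice, the offspring of C57BL/6 males and C3H/He females, which were 29 to 32 days old on arrival and acclimatised for 5 days. The treated groups had phenobarbital at 0.05% (w/v) in the drinking water for 1, 7, 28 or 91 days, and each had a control group of the same day, so that all 8 groups shared strain, sex and age at the start. The day 1 controls had 4 arrays and the other 7 groups had 5, 39 in all. The labels hold no replicate numbers, and those used here follow the order of the deposited samples within each group. Nothing in the labels ties an array to an animal of its own, and the p-values therefore cover variation among these arrays only, part of which may be technical.

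Cytochromes P450 of this subfamily are haem enzymes of the hepatocyte endoplasmic reticulum that oxidise drugs and steroids. Phenobarbital leads to nuclear entry of the receptor CAR (gene Nr1i3), which binds DNA with the retinoid X receptor, and Cyp2b10 is the classical target by which this activation is read in the mouse; its known phenobarbital-responsive enhancer lies further upstream than the sequence printed below. Cyp2b9 and Cyp2b13 are known to be higher in female than in male mouse liver, a difference that depends on the pattern of growth hormone secretion and appears at puberty.

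In the RefSeq table (GRCm38.p6) the genes lie on chromosome 7 in the order Cyp2b10, Cyp2b13, Cyp2b9, with 3 annotated genes or pseudogenes between the first pair and 3 between the second. The 250 bases before each annotated start, all on the plus strand, are shown because all 3 genes rose under phenobarbital while their controls moved apart, and because they show how alike the genes are. Capitals mark AGGTCA, the half-site read by nuclear receptors, in Cyp2b9 and Cyp2b13, and the strings CATAAAA and TTGCATAA in Cyp2b10.
Cyp2b10, chr7:25897408-25897657: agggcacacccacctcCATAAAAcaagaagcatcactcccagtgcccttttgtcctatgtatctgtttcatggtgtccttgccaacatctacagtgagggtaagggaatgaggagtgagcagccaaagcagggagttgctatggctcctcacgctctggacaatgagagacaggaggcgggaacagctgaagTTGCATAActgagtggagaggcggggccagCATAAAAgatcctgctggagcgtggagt
Cyp2b9, chr7:26173159-26173408: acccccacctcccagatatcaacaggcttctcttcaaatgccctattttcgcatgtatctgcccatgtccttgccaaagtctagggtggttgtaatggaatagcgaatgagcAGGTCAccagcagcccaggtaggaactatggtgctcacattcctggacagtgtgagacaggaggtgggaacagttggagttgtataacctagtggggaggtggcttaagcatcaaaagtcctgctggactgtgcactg
Cyp2b13, chr7:26061245-26061494: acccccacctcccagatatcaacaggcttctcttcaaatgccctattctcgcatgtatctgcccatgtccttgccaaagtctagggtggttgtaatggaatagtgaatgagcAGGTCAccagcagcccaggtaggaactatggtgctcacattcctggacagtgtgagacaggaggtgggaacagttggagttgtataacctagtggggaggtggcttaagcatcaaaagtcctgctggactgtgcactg

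The windows of Cyp2b9 and Cyp2b13 were identical at 248 of 250 bases (99.2%). They differed by T48C and C104T, with the base of Cyp2b9 first and positions counted from the first base printed. The window of Cyp2b10 aligned with each of them over 240 positions, of which 179 (74.6%) were the same. AGGTCA, searched on both strands, lay at bases -138 to -133 relative to the start of Cyp2b9 and of Cyp2b13 and occurred in 4607 of 32851 windows of the same length. CATAAAA lay at bases -234 to -228 and -28 to -22 of Cyp2b10 (3.77% of windows), and TTGCATAA at bases -58 to -51 (0.694% of windows). GGGCGG (32.7% of windows), TTCNNNGAA (7.02%) and TATAAA (12.4%) were not among the letters of any of the 3 windows. CATAAAA and TTGCATAA share the letters CATAA but did not overlap here. The strings were chosen after the windows had been read, and a match is a description of letters only.

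Signals are the deposited log2 values, and a difference of 1 is a doubling of signal. Array medians lay between 5.69 and 5.80, lower quartiles between 4.37 and 4.48 and maxima between 15.03 and 15.12. Replicate arrays correlated at 0.989 to 0.996 across probe sets, which are not independent replicates. The 7 hepatocyte markers with a probe set (of 8) had a mean of 14.19 to 14.46 on every array. Kidney, which the extraction protocol also names, had 5 of 6 markers with a probe set, with a mean of 4.64 to 5.59 and 2 of them below the lower quartile of every array. Treated day 1 replicate 3 stood out for exocrine pancreas genes (mean of 5 genes 11.09, at most 7.00 elsewhere). Treated day 7 replicate 3 stood out for neutrophil genes (mean of 7 genes 8.81, at most 6.27 elsewhere). Neither was the highest array of its group for any Cyp2b probe set. Treated day 1 replicate 3 was the lowest of its group for Cyp2b9 (10.93) and level with the lowest for Cyp2b13 (8.28). Day 1 control replicate 2 had the lowest mean over 18 male-biased genes of all 39 arrays (8.76) and was the highest of its group for all 5 Cyp2b probe sets. Treated minus control at day 1 for the Cyp2b genes and the list counts of day 1 are therefore given with and without it. Values of single listed genes and most other comparisons with day 1 include it. Day 28 control replicate 2 has an identifier out of sequence with the others, and the calls at day 28 were the same without it.

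Phenobarbital raised Cyp2b10 on every treated array from the first day, by 49.95- to 119.6-fold on its first probe set. On the second and the third it was 45.08- to 150.4-fold and 53.21- to 168.2-fold. The largest folds, at day 28, rest on some controls near or below the array medians and may understate the change. Of the 5 Cyp2b probe sets, 4 at day 1 and all 5 at days 7, 28 and 91 were called higher (adjusted p under 0.05, limma). Of all 45037 probe sets fitted, 12.1% were called higher at day 1, 4.73% at day 7, 10.9% at day 28 and 5.70% at day 91. Cyp2b9 rose by 1.92 at day 7, 4.17 at day 28 and 2.84 at day 91 on the log2 scale, with no call at day 1. Cyp2b13 rose at all 4 times, least at day 28 (1.91) and most at day 91 (4.81). No fold is given for Cyp2b9 and Cyp2b13, since some or most of their control arrays read near or below the array medians, the deposited values carry no detection call, and such differences may understate the change. Because liver pieces hold several cell types, more transcript per hepatocyte and more cells with the transcript cannot be told apart. Probe sets differ in how brightly they bind, so levels of different genes are not set against each other.

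**Figure D1:**
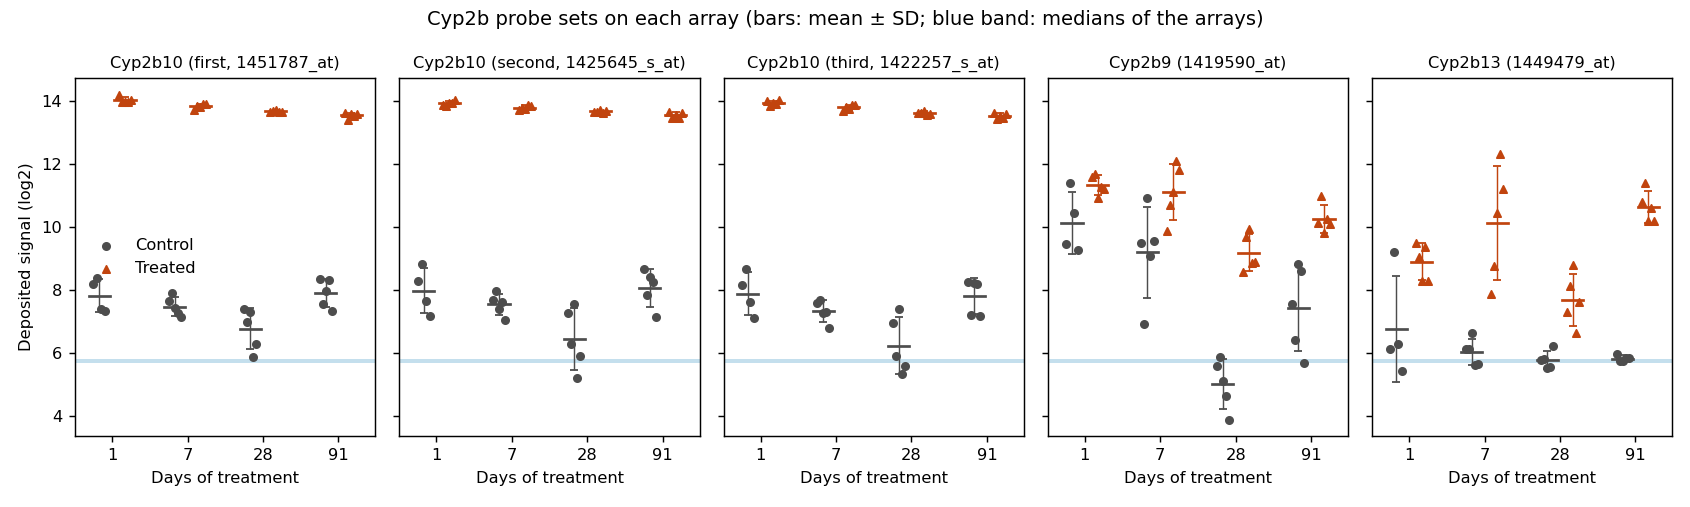
Deposited log2 signal (vertical axis) of the 5 Cyp2b probe sets on each of 39 arrays by days of treatment (horizontal axis), with circles for controls, triangles for treated arrays, and a horizontal line with a bar for the mean ± SD of each group, the Cyp2b10 probe sets in order from the left and the manufacturer's name of each in its panel title; the blue band spans the array medians, 5.69 to 5.80. Treated Cyp2b10 values form tight groups between 13.41 and 14.21, far above all controls, whereas Cyp2b9 controls drop at day 28 and Cyp2b13 controls stay low apart from 1 array of day 1.

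Cyp2b10 oxidises xenobiotics and is the member best known for its induction by phenobarbital. In the day 1 controls the first Cyp2b10 probe set read 8.19, 8.37, 7.40 and 7.35, against 14.21, 13.97, 13.98, 13.98 and 14.05 on the treated arrays. At day 7 the controls read 7.64, 7.92, 7.43, 7.26 and 7.15 and the treated arrays 13.72, 13.84, 13.81, 13.91 and 13.92. At both times the lowest treated array lay far above the highest control. At day 28 the controls read 7.41, 6.99, 7.29, 5.88 and 6.30, against 13.67, 13.68, 13.73, 13.66 and 13.65 after treatment. At day 91 the controls read 8.35, 7.57, 7.98, 8.31 and 7.35 and the treated arrays 13.64, 13.41, 13.59, 13.53 and 13.59. The day 28 controls held the lowest values of all, and the treated arrays were almost level.

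The differences of means on the first Cyp2b10 probe set were 6.21 (SE 0.22, adjusted p = 2.69e-22) at day 1, 6.36 (SE 0.21, adjusted p = 1.41e-23) at day 7, 6.90 (SE 0.21, adjusted p = 7.71e-25) at day 28 and 5.64 (SE 0.21, adjusted p = 6.58e-22) at day 91, by limma with Benjamini-Hochberg adjustment over all probe sets. Without day 1 control replicate 2 the day 1 differences of the 3 probe sets, in order, were 6.39, 6.23 and 6.32, all called. An exact 2-sided permutation test gave the smallest p that the arrays allow, 0.0159 at day 1 and 0.00794 at the other times, and 0.0187 and 0.0113 after adjustment over 20 tests. The groups of treated and control arrays did not overlap for any Cyp2b10 probe set at any time. Such separation upwards was found for 10.4%, 3.69%, 5.47% and 3.24% of all probe sets at days 1, 7, 28 and 91.

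The names of the other Cyp2b10 probe sets carry a suffix by which the manufacturer marks probes that match several transcripts. On the second the differences were 5.95, 6.25, 7.23 and 5.49 at days 1, 7, 28 and 91 (SE 0.28 to 0.30). On the third they were 6.06, 6.48, 7.39 and 5.73 (SE 0.27 to 0.28). All 12 differences of the 3 probe sets were called higher. As a description of signal only, the group means of these 3 probe sets of 1 gene differed by at most 0.54. The lowest and highest array of a group were mostly shared: the second and the third had the same lowest array in 8 of 8 groups and the same highest array in 7.

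**Figure D2:**
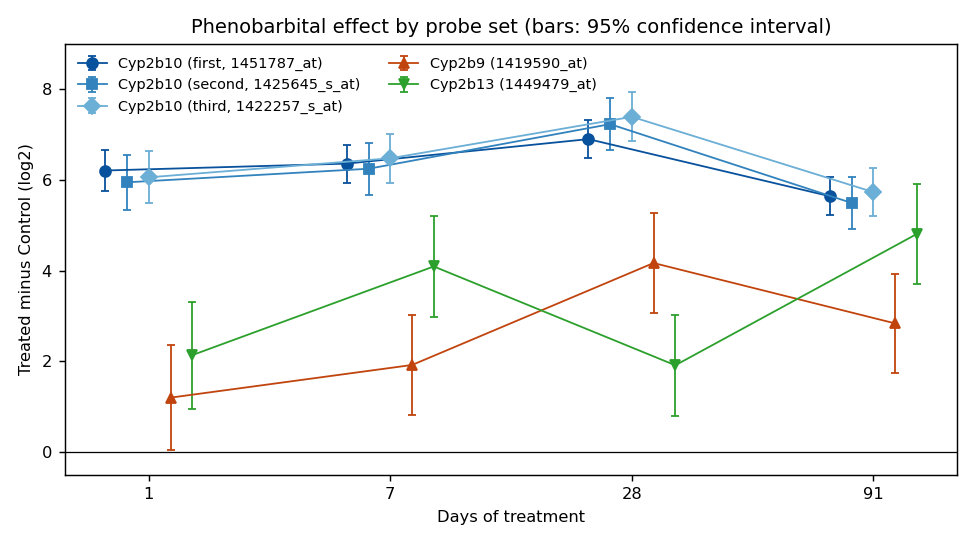
Treated minus control difference on the log2 scale (vertical axis) at each duration in days (horizontal axis) for the 5 probe sets, with 95% confidence intervals from limma as bars. The 3 Cyp2b10 probe sets run together between 5.49 and 7.39, and Cyp2b9 and Cyp2b13 exchange places between days 7 and 28 and again by day 91.

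Cyp2b9 is a steroid-oxidising P450 of female mouse liver. In the day 1 controls Cyp2b9 read 9.45, 11.40, 10.45 and 9.27, and after treatment 11.60, 11.69, 10.93, 11.28 and 11.21. At day 7 the controls read 9.48, 6.92, 10.93, 9.09 and 9.57 and the treated arrays 9.87, 10.70, 11.12, 12.10 and 11.81. At these times the groups overlapped through single controls, replicate 2 of day 1 and replicate 3 of day 7. At day 28 the controls read 5.59, 5.87, 5.11, 4.65 and 3.89, and the treated arrays 8.57, 9.69, 9.94, 8.86 and 8.90. At day 91 the controls read 7.55, 6.42, 8.83, 8.62 and 5.70, and the treated arrays 10.13, 10.98, 9.83, 10.26 and 10.12. Treated and control arrays no longer overlapped at these times, and 4 of the 5 controls of day 28 lay below the median of their own array, 1 of them (3.89) below its lower quartile.

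The Cyp2b9 difference at day 1 was 1.20 (SE 0.57, adjusted p = 0.12, limma) and was not called. At day 7 it was 1.92 (SE 0.54, adjusted p = 0.0175), at day 28 4.17 (SE 0.54, adjusted p = 1.12e-06) and at day 91 2.84 (SE 0.54, adjusted p = 0.00051). The exact permutation test gave p = 0.0635 at day 1, 0.0238 at day 7 and 0.00794 at days 28 and 91, with adjusted values of 0.0635, 0.0264 and 0.0113. The day 1 difference of Cyp2b9 was called when only the arrays of that day were fitted (adjusted p = 0.0227) and was 1.62 without day 1 control replicate 2 (adjusted p = 0.0526). The day 7 call of Cyp2b9 was lost in the fit of that day alone (adjusted p = 0.0605), without day 7 control replicate 2 (1.35, adjusted p = 0.0872) and without treated day 7 replicate 4 (1.68, adjusted p = 0.0596).

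Cyp2b13 is the nearest relative of Cyp2b9 in the windows printed above and is likewise known from female liver. In the day 1 controls Cyp2b13 read 6.12, 9.21, 6.30 and 5.44, against 9.51, 9.07, 8.28, 9.37 and 8.28 on the treated arrays. At day 7 the controls read 6.12, 6.13, 6.64, 5.62 and 5.65 and the treated arrays 7.87, 8.78, 10.45, 12.34 and 11.21. The day 1 groups overlapped only through control replicate 2, and the treated arrays of day 7 were the most scattered group (SD 1.81). At day 28 the controls read 5.78, 5.82, 5.53, 5.57 and 6.23, and the treated arrays 7.31, 8.12, 8.81, 6.62 and 7.63. At day 91 the controls read 5.98, 5.75, 5.73, 5.83 and 5.83 and the treated arrays 10.80, 11.40, 10.18, 10.61 and 10.19. Controls other than day 1 replicate 2 stayed near the array medians, and the treated mean was lowest at day 28 and highest at day 91, although the highest single array (12.34) was one of day 7.

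The Cyp2b13 difference was 2.14 at day 1 (SE 0.58, adjusted p = 0.00587, limma), 4.09 at day 7 (SE 0.55, adjusted p = 2.95e-06), 1.91 at day 28 (SE 0.55, adjusted p = 0.00964) and 4.81 at day 91 (SE 0.55, adjusted p = 1.02e-07). Exact permutation p-values were 0.0635 at day 1 and 0.00794 at the later times. Without day 1 control replicate 2 the day 1 difference of Cyp2b13 was 2.95 (adjusted p = 1.72e-04), since that control read 9.21 where the other 3 read at most 6.30.

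The control level of Cyp2b10 and Cyp2b9 changed over the course of the study, and that of Cyp2b13 did not pass the test between any of the times compared. From day 1 to day 7 no Cyp2b probe set was called (limma, 0 of 5, also 0 at an unadjusted p under 0.05), where 24.3% of all probe sets were called in either direction. From day 7 to day 28 the controls fell on 4 of 5 probe sets (15.5% of all probe sets were called lower), by 0.70 (SE 0.21, adjusted p = 0.00881), 1.10 (SE 0.28, adjusted p = 0.0029) and 1.09 (SE 0.27, adjusted p = 0.00176) on the Cyp2b10 probe sets in the order above. Cyp2b9 fell by 4.18 (SE 0.54, adjusted p = 5.82e-07) on the log2 scale, to a mean of 5.02 that lay below the array medians, with no overlap between the groups (true of 7.60% of all probe sets in that direction). Cyp2b13 differed by -0.25 (SE 0.55, adjusted p = 0.775), with a 95% interval from -1.36 to 0.86.

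From day 28 to day 91 the same 4 probe sets were called higher in controls (4.10% of all probe sets were), with rises of 1.14, 1.62 and 1.57 for Cyp2b10 (adjusted p = 0.000558, 0.000372 and 0.000256) and 2.40 for Cyp2b9 (SE 0.54, adjusted p = 0.00445). Cyp2b13 differed by 0.04 (adjusted p = 0.977, 95% interval -1.07 to 1.15). Cyp2b9 was still 2.72 lower at day 91 than at day 1 (SE 0.57, adjusted p = 0.000599, 1 of 5 probe sets against 10.9% of all), whereas Cyp2b10 differed by 0.08, 0.08 and -0.09 (adjusted p = 0.824, 0.878 and 0.862). The fall on the first Cyp2b10 probe set from day 7 to day 28 was not called in a fit of those 2 groups alone (adjusted p = 0.0593) or without day 28 control replicate 4 (-0.48, adjusted p = 0.0631). With the mean of the spike-in control probe sets as a covariate, neither the first (-1.10, adjusted p = 0.11) nor the second Cyp2b10 probe set (-1.75, adjusted p = 0.051) was called. Markers of other liver cells moved over the same days: all 6 Kupffer cell markers were called lower in controls from day 7 to day 28 (median -0.93; 20.0% of all genes were called lower), with 3 of 7 stellate cell markers and 3 of 6 endothelial markers. The part of these cells in the Cyp2b changes was not tested.

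In the treated groups Cyp2b10 drifted downwards in small steps that the shared fit did not call. Its means on the first probe set were 14.04 ± 0.10, 13.84 ± 0.08, 13.68 ± 0.03 and 13.55 ± 0.09 (SD, n = 5 each) at days 1, 7, 28 and 91. Day 91 minus day 1 was -0.48 (SE 0.21, adjusted p = 0.076), and the 2 groups did not overlap on any of the 3 Cyp2b10 probe sets (11.5% of all probe sets were lower without overlap). The shared SE is set by the wider controls, and in a fit of the 2 treated groups alone the same difference had an adjusted p of 8.7e-06.

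In the treated groups no Cyp2b probe set was called between days 1 and 7 (limma, 0 of 5; 1 at an unadjusted p under 0.05), where 11.0% of all were called in either direction. From day 7 to day 28 Cyp2b9 fell by 1.93 (SE 0.54, adjusted p = 0.0182) and Cyp2b13 fell by 2.43 (SE 0.55, adjusted p = 0.00275), 2 of 5 probe sets against 4.35% called lower in all. From day 28 to day 91 Cyp2b13 rose by 2.94 (SE 0.55, adjusted p = 0.00211, 4.62% of all probe sets called higher), with no overlap between the groups (4.46% of all were higher without overlap), and Cyp2b9 differed by 1.07 (SE 0.54, adjusted p = 0.215). Cyp2b13 was also 1.74 higher at day 91 than at day 1 (SE 0.55, adjusted p = 0.0142; 14.3% of all were called higher). The Cyp2b9 fall was lost when treated day 7 replicate 4 (-1.68, adjusted p = 0.0697), replicate 5 (-1.76, adjusted p = 0.0544) or treated day 28 replicate 1 (-1.77, adjusted p = 0.055) was left out, and the Cyp2b13 fall in a fit of those 2 groups alone (adjusted p = 0.0617). With the mean of 18 male-biased liver genes as a covariate the falls were -0.33 (adjusted p = 0.871) for Cyp2b9 and -0.55 (adjusted p = 0.624) for Cyp2b13, and neither was called. That mean itself differed between these treated groups (9.85 at day 7 and 10.72 at day 28), so its part cannot be told apart from time. All 6 Kupffer cell markers were again called lower between these times (median -1.02; 6.90% of all genes were called lower), a change whose part in the Cyp2b values was not tested.

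Differences of the effect between times were tested as interactions. Between days 28 and 91 the Cyp2b10 effect shrank by 1.26 (SE 0.29, adjusted p = 0.00435), 1.74 (SE 0.40, adjusted p = 0.00416) and 1.66 (SE 0.38, adjusted p = 0.00368), while the Cyp2b13 effect grew by 2.90 (SE 0.78, adjusted p = 0.0113). The Cyp2b13 change was not called with the spike-in mean (3.01, adjusted p = 0.0609) or the 3′ minus 5′ difference described further on (2.99, adjusted p = 0.117) as a covariate. Of all probe sets 7.15% had an effect called lower and 7.35% one called higher in that comparison. For Cyp2b10 the control means rose by 1.14 to 1.62 over these times and the treated means differed by -0.12 to -0.09. Some of the Cyp2b10 controls of day 28 read near or below the array medians, which limits the size of its effect at that time. The Cyp2b13 effect was 2.67 larger at day 91 than at day 1 (SE 0.80, adjusted p = 0.0168, 8.99% of all called higher), but this rested on day 1 control replicate 2: without it the difference was 1.86 (adjusted p = 0.0716).

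Cyp2b9 and Cyp2b13 went opposite ways between days 7 and 28, by 2.25 (SE 0.77) and -2.18 (SE 0.78), and neither passed the test (adjusted p = 0.0615 and 0.075; 0 of 5 probe sets called, 4 of 5 at an unadjusted p under 0.05, against 7.75% of all called in either direction). The effects at day 7 and day 1 differed by 0.15 to 1.96 over the 5 probe sets, and 0 were called (limma, adjusted p = 0.107 to 0.806; 1 at an unadjusted p under 0.05), against 11.8% of all in either direction.

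**Figure D3:**
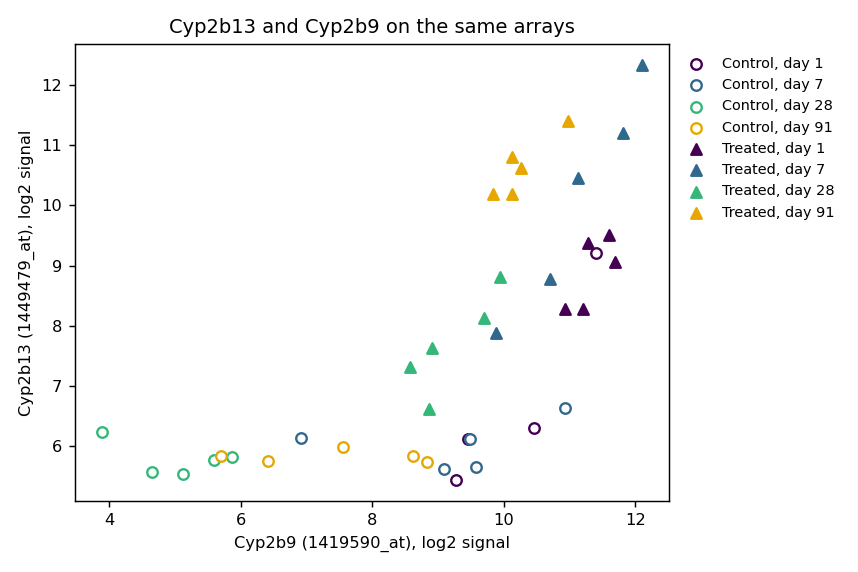
Log2 signal of Cyp2b13 (vertical axis) against that of Cyp2b9 (horizontal axis) on the same 39 arrays, with open circles for controls, filled triangles for treated arrays and a colour for each day. Control points spread along the horizontal axis from 3.89 to 11.40 while all but 1 stay between 5.44 and 6.64 vertically, and the treated arrays of each day form a rising cloud, highest for its Cyp2b9 signal at day 91.

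Ordered by mean, the groups of the first Cyp2b10 probe set ran from the controls of days 28, 7, 1 and 91 to the treated arrays of days 91, 28, 7 and 1, from 6.78 ± 0.66 to 14.04 ± 0.10. On the third probe set the controls of days 1 and 91 changed places (7.89 and 7.81). The gap between the highest control group and the lowest treated group was the only one between neighbours that was free of overlap on all 3 Cyp2b10 probe sets. For Cyp2b9 the order was control day 28 (5.02 ± 0.79, SD, n = 5), control day 91 (7.42 ± 1.36), treated day 28 (9.19 ± 0.59), control day 7 (9.20 ± 1.45), control day 1 (10.14 ± 0.99, n = 4), treated day 91 (10.26 ± 0.43), treated day 7 (11.12 ± 0.89) and treated day 1 (11.34 ± 0.31). All 7 neighbouring pairs overlapped, and treated day 28 lay at the level of untreated day 7. For Cyp2b13 the order was control day 28 (5.79 ± 0.28), control day 91 (5.83 ± 0.10), control day 7 (6.03 ± 0.42), control day 1 (6.76 ± 1.67, n = 4), treated day 28 (7.70 ± 0.83), treated day 1 (8.90 ± 0.59), treated day 7 (10.13 ± 1.81) and treated day 91 (10.64 ± 0.50), and its 7 neighbouring pairs also overlapped.

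Replicate arrays were closer together under treatment for Cyp2b10 and Cyp2b9, and further apart for Cyp2b13 except at day 1. On the Cyp2b10 probe sets the pooled SD within groups was 0.50 to 0.70 in controls and 0.07 to 0.08 in treated arrays, which lay 0.87 to 1.70 below the brightest probe set of their array. For Cyp2b9 it was 1.19 in controls and 0.60 in treated arrays. For Cyp2b13 it was 0.79 in controls and 1.07 in treated arrays, and its group SD ranged from 0.10 in the day 91 controls to 1.81 in the day 7 treated arrays. At day 1 the Cyp2b13 SD was 1.67 in controls, where replicate 2 read 9.21, and 0.59 in treated arrays. Its controls at the other times lay near the array medians. Whether the narrow Cyp2b10 spread reflects probes near their upper limit was not tested.

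Whether probes of one gene also bind transcripts of another could not be read from probe sequences, which were not used here, so the signals themselves are described. Cyp2b9 fell by 4.18 in controls between days 7 and 28 while Cyp2b13 differed by -0.25. The Cyp2b13 controls already read near the array medians at day 7 (mean 6.03), which left little room for a fall. They did so while Cyp2b9 had a mean of 9.20, and replicate 3 read 10.93 for Cyp2b9 and 6.64 for Cyp2b13. Between days 28 and 91 under treatment Cyp2b13 rose by 2.94 while the 3 Cyp2b10 probe sets differed by -0.12 to -0.09. Treated Cyp2b10 signals lay only 0.87 to 1.70 below the brightest probe set of their array, which may hide a rise. Neither change over time can therefore decide on cross-matching. Treated day 28 replicate 4 read 13.66 on the first Cyp2b10 probe set and 6.62 for Cyp2b13. The Cyp2b13 signal was thus low on some arrays with high Cyp2b9 or Cyp2b10 signals, and cross-matching itself was not tested. Within groups Cyp2b9 and Cyp2b13 had the same highest array in 5 of 8. Their deviations from the group means correlated at r = 0.911 over the 20 treated arrays and 0.342 over the 19 controls. This describes arrays that share their RNA between the probe sets, and it cannot separate cross-matching from genes that vary together. A further member of the subfamily, Cyp2b19, which is known from skin, had 1 probe set that stayed between 2.90 and 3.66, below the lower quartile of all 39 arrays.

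The genes most like each member were taken by Pearson correlation of log2 signal over the 39 arrays, which share treatment and time, so the values are descriptions. Nearest to Cyp2b10 were Cyp2c55 (r = 0.984), a P450 of fatty acids, Gstm3 (0.973), a glutathione transferase, 4931406C07Rik (0.970), 1700067K01Rik (0.968) and Cyp2c54 (0.961). Nearest to Cyp2b9 were Ttc39a (0.855), Prss8 (0.854), a membrane-bound serine protease, Tmem53 (0.853), Pls1 (0.847), an actin-bundling protein, and Atp2b2 (0.844), a calcium pump. Nearest to Cyp2b13 were Abcc4 (0.877), an efflux transporter, 1700067K01Rik (0.849), Cyp2c37 (0.849), Sgpl1 (0.837), which cleaves sphingosine phosphate, and Coro7 (0.827). Cyp2c55 rose by 3.99, 4.68, 4.01 and 3.45 at the 4 times, the nearest in size to Cyp2b10 among these 5.

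Other genes known to respond to CAR rose with Cyp2b10. Of 29 listed, 25 had a probe set, and 23, 25, 22 and 20 of them were called higher at days 1, 7, 28 and 91 and 0 lower, where 14.2%, 5.18%, 11.7% and 4.94% of 18193 genes were called higher. The median change of the list was 0.68, 0.80, 0.65 and 0.61, against 0.03, -0.03, 0.01 and -0.05 for all genes. Cyp2c65 rose by 6.93 at day 28 and 7.13 at day 91, and Gstm3 by 2.51, 2.13, 2.65 and 2.51. Without day 1 control replicate 2, 22 of the 25 were called higher at day 1. The list was drawn up with earlier results of these data known and so is not independent evidence of its direction.

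Genes that carry or adjust the CAR signal were called in both directions. Of 22, 19 had a probe set, and 2, 1, 2 and 2 were called higher and 5, 3, 4 and 3 lower at the 4 times. Of all genes 14.2%, 5.18%, 11.7% and 4.94% were called higher and 11.9%, 8.10%, 13.2% and 12.8% lower. The counts called higher at days 1, 7 and 28 and the 3 called lower at day 91 lie near those shares. The list's median change was -0.08 at day 1 and nearer to 0 at the other times. Without day 1 control replicate 2 the day 1 counts were 2 higher and 4 lower. Gadd45b, a stress-inducible protein known to act with CAR, rose at every time, by 2.46, 1.19, 1.29 and 1.59. Nr1i3, which encodes CAR, fell by 0.59 at day 7 (SE 0.12, adjusted p = 0.000937) and by 0.50 at day 91 (SE 0.12, adjusted p = 0.00359). Ppargc1a, a coactivator of fasting metabolism, fell by 1.39 at day 1 and by 1.36 at day 28.

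P450 enzymes need haem and electrons, and of 13 genes of that supply 11 had a probe set. Called higher were 3, 2, 4 and 1 of them and lower 2, 1, 1 and 1 at days 1, 7, 28 and 91, with list medians of 0.14, -0.10, 0.16 and -0.05. Of all genes 14.2%, 5.18%, 11.7% and 4.94% were called higher and 11.9%, 8.10%, 13.2% and 12.8% lower, so that a count of 1 of 11 lies near the share of all genes. The day 1 counts were the same without day 1 control replicate 2. Alas1, the first enzyme of haem synthesis, rose by 2.39 (SE 0.44), 1.39 (SE 0.42) and 2.48 (SE 0.42) at days 1, 7 and 28. Cyb5a, a cytochrome that passes electrons to P450s, rose by 0.16 to 0.26 at all 4 times. Cpox, a later enzyme of haem synthesis, fell by 0.65, 0.47 and 0.55 at days 1, 7 and 28.

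Of 10 other P450 genes of the Cyp2 locus 5 had a probe set. Of these Cyp2g1, a P450 known from the nasal lining, was called at every time and rose by 1.53, 1.57, 1.36 and 1.04 at the 4 times (adjusted p at most 0.000607). Cyp2a12 rose by 0.17 at day 28, and no other of the 5 was called under treatment at any time, Cyp2b19 included. The median change of the 5 lay between -0.10 and 0.09. Of all genes 14.2%, 5.18%, 11.7% and 4.94% were called higher at the 4 times, and a list of 5 is too short to be set against these shares. Without day 1 control replicate 2 the day 1 count called higher was still 1.

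Genes known to be higher in female liver, as Cyp2b9 and Cyp2b13 are, were listed for comparison. Of 25, 18 had a probe set, and under treatment 6, 5, 3 and 4 were called higher and 1, 0, 1 and 3 lower at days 1, 7, 28 and 91, with list medians of 0.10, 0.55, 0.25 and 0.05. Beside the 14.2%, 5.18%, 11.7% and 4.94% of all genes called higher, the 3 of 18 at day 28 lie near that share. Called lower were 11.9%, 8.10%, 13.2% and 12.8% of all genes, and the 3 of 18 called lower at day 91 lie near that share. Without day 1 control replicate 2 the day 1 counts were 7 higher and 0 lower. Sult3a1, a sulfotransferase, rose by 3.57, 6.02, 1.70 and 2.60, least at day 28 as Cyp2b13 did. Prom1, a membrane glycoprotein, rose by 2.55, 2.76, 2.43 and 2.04. In controls 8 of 18 fell from day 1 to day 7 (2 without day 1 control replicate 2), 6 fell from day 7 to day 28 and 4 rose from day 28 to day 91 (10.9%, 20.0% and 5.36% of all genes were called in those directions), among them Hao2, a peroxisomal oxidase, which fell by 3.66 and then rose by 2.34 at the times when Cyp2b9 fell and rose.

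Some genes known to be higher in male liver were called lower at days 1 and 7. Of 23, 18 had a probe set, and under treatment 0, 1, 0 and 1 were called higher and 8, 5, 0 and 0 lower at days 1, 7, 28 and 91. Of all genes 14.2%, 5.18%, 11.7% and 4.94% were called higher and 11.9%, 8.10%, 13.2% and 12.8% lower. Without day 1 control replicate 2, 12 of the 18 were called lower at day 1. Hsd3b5, a steroid dehydrogenase, fell by 2.08 at day 1 and fell by 2.06 at day 7. In controls 7 of 18 rose from day 1 to day 7 and 6 from day 7 to day 28 (15.5% and 13.4% of all genes), and without day 1 control replicate 2 the first of these counts was 0. The mean of the 18 genes was 9.79 ± 0.75 (SD, n = 4) in controls and 9.14 ± 0.17 (n = 5) in treated arrays at day 1, 10.40 ± 0.28 and 9.85 ± 0.57 at day 7, 10.85 ± 0.10 and 10.72 ± 0.13 at day 28, and 10.44 ± 0.22 and 10.59 ± 0.22 at day 91 (n = 5 each).

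**Figure D4:**
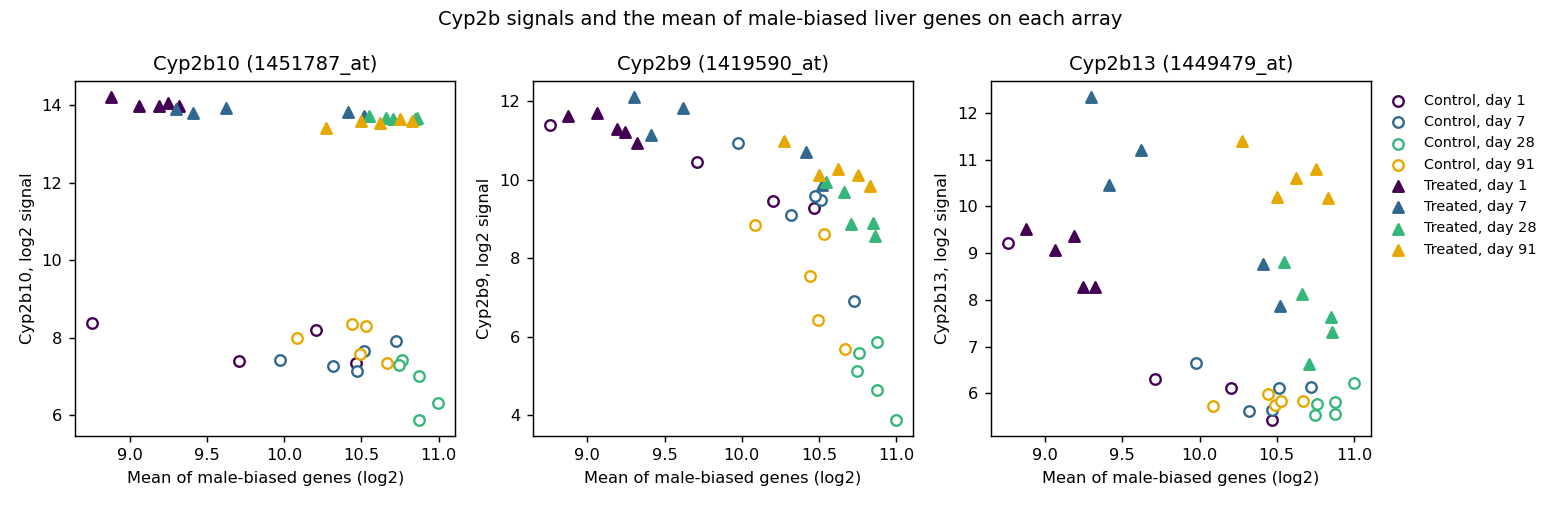
Log2 signal of Cyp2b10 (its first probe set), Cyp2b9 and Cyp2b13 (vertical axes) against the mean log2 signal of 18 male-biased genes (horizontal axes) on each of 39 arrays, with open circles for controls, filled triangles for treated arrays and a colour for each day. The array with the highest Cyp2b9 signal is the one with the lowest male-biased mean in 6 of 8 groups, the lowest mean of all being 8.76, while Cyp2b10 splits by treatment at every male-biased mean.

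This male-biased mean moved opposite to Cyp2b9 from array to array, and opposite to Cyp2b13 mainly at its highest arrays. The array highest for Cyp2b9 was the array lowest for the male-biased mean in 6 of 8 groups, and the array lowest for Cyp2b9 was the highest for that mean in 8 of 8. For Cyp2b13 these counts were 6 and 3 of 8, and for the Cyp2b10 probe sets 3 or 4 and 3, so the lower end of Cyp2b13 matched no more often than Cyp2b10. The highest and lowest arrays of the female-biased mean were those of Cyp2b9 in 6 and 6 groups and of Cyp2b13 in 5 and 3. For the Cyp2b10 probe sets they were 2 to 4 and 3. Such matches were not counted over all probe sets. With the male-biased mean as a covariate the Cyp2b13 difference at day 1 was 0.74 (adjusted p = 0.156) and the Cyp2b9 difference at day 7 was 0.91 (adjusted p = 0.169), both no longer called, and Cyp2b9 at day 1 was 0.01. At days 28 and 91 Cyp2b9 and Cyp2b13 stayed called with that covariate. The male-biased mean was itself lower under treatment at day 1 (9.14 against 9.79) and day 7 (9.85 against 10.40). As a covariate it therefore removes any part of the phenobarbital effect that it shares, and these adjusted differences cannot separate treatment from other differences between arrays.

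Technical measures also moved with some groups. The mean of 18 spike-in control probe sets was 9.96 ± 0.29 in the day 7 controls and 10.85 ± 0.09 in the treated arrays of that day (SD, n = 5 each), and with it as a covariate the Cyp2b9 difference at day 7 was 0.89 (adjusted p = 0.546). The difference between probe sets for the 3′ and 5′ ends of Actb and Gapdh, a measure of RNA integrity, was 0.66 ± 0.11 in the day 28 controls and 0.46 ± 0.04 in the treated arrays (SD, n = 5 each), and with it as a covariate Cyp2b13 at day 28 was 1.84 (adjusted p = 0.0798). The 12 Cyp2b10 differences between treated and control arrays stayed called with each of these covariates. Stellate cell markers were called lower under treatment in 0, 2, 4 and 3 of 7 at days 1, 7, 28 and 91 and endothelial markers in 1, 1, 3 and 2 of 6, while the 6 Kupffer cell markers had adjusted p-values of at least 0.0841 at all 4 times (limma). Of all genes 11.9%, 8.10%, 13.2% and 12.8% were called lower at these times, so that a count of 1 of 6 lies near that share. Whether the share of these cells bears on the Cyp2b differences was not tested.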

How the data were processed

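Each of the 39 samples is 1 Affymetrix mouse array of liver RNA. The authors deposited 1 log2 value per probe set and array, normalized between arrays; GCOS is named, with no version, in the submitters' processing notes, and the method of normalization is not given in the sources used here. The values were used unchanged. Per the labels' protocols, RNA was labelled by 3′ in vitro transcription. The treatment protocol mentions 28 days, and the durations given per sample were used.

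Of the 45101 probe sets, 64 array controls were left out and 45037 were fitted, with no filter on low signal, in limma 3.58.1 under R 4.3.3: 1 mean per group over all 39 arrays, a trend of the prior variance with signal, and 31 residual beside 5.91 prior degrees of freedom. P-values are 2-sided and adjusted by Benjamini-Hochberg within each comparison, and a probe set was called at an adjusted p under 0.05. Exact 2-sided permutation tests of Treated against Control, were adjusted over 20 tests. The fit was tested on simulated data in which all groups of a probe set had the same spread, so that test does not cover the unequal spread of Cyp2b10 between control and treated arrays. Each listed gene was represented by its brightest probe set on average, and up to 4 called genes per list and comparison with the smallest adjusted p could be named, besides the 5 genes most like each member. Hao2 and Cpox were named for their course after their values had been seen where they fall outside that rule. The platform annotation pairs 34945 of the fitted probe sets with 1 symbol, 18193 genes in all, and may be old. The members and the lists were chosen with earlier results of these data known. Precision is limited by the number of arrays, which hold no counts. Promoter windows come from RefSeq's table, in which 3 of 3 members had an entry; the build of the array's annotation is not given in the sources used here, so no other coordinates are printed. The alternatives tried were quantile normalization, median centring, filters on signal at the array's 50th and 75th percentile on at least 4 arrays, 2 other priors, array weights, a fit of only the groups compared, 3 covariates and leaving out each array.

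Cell type markers of 9 lists were looked at per array: Kupffer cell markers had a mean of 7.89 to 10.43, stellate cell markers 8.63 to 10.14, endothelial markers 8.13 to 9.27, cholangiocyte markers 5.44 to 5.90 and erythroid markers 6.51 to 7.50, and the other lists stand in the report.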

Additional observations from a re-analysis of the deposited data

Results flagged for a closer look

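In 5 cases the effect of phenobarbital on a Cyp2b probe set differed between 2 times by limma's interaction term. Between days 28 and 91 it shrank on the Cyp2b10 probe sets, by -1.26 on the first, -1.74 on the second and -1.66 on the third, and grew by 2.90 for Cyp2b13. Between days 1 and 91 it grew by 2.67 for Cyp2b13. For Cyp2b10 the treated means differed little between these times and the control means rose. The last of these differences was not called without day 1 control replicate 2, and the Cyp2b13 difference between days 28 and 91 was not called with the spike-in mean (adjusted p = 0.0609) or the 3′ minus 5′ difference (adjusted p = 0.117) as a covariate.

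One array lay apart from the others of its group by the gap between neighbouring values. It was the lowest array of the treated day 1 group for Cyp2b19, at 2.90, on a probe set that was below the lower quartile on all 39 arrays. Of 48 combinations of group and probe set looked at, 1 stood apart in this way, and chance alone gives about 1 in 20. The high Cyp2b13 value of day 1 control replicate 2 (9.21) did not reach that limit.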

How the results depend on the processing

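The counts of Cyp2b probe sets called higher under treatment kept within 1.5 times of the reported ones in every alternative: 3 to 5 at day 1, 4 to 5 at days 7 and 28, and 5 at day 91. All 12 Cyp2b10 differences stayed called. Counts that moved concern changes over time. Control day 28 minus day 7 gave 2 in place of 4 with the spike-in covariate. Treated day 7 minus day 1 gave 1 in place of 0 with array weights, with only the groups compared and with the male-biased mean as a covariate. Treated day 28 minus day 7 gave 0 in place of 2 with the male-biased mean, and treated day 91 minus day 28 gave 2 in place of 1 with only the groups compared. Treated day 91 minus day 1 gave 2 in place of 1 with the filter at the 75th percentile, array weights and the 3′ minus 5′ covariate, 3 with the spike-in covariate and 5 with only the groups compared. For the effect at day 7 minus day 1, array weights and the male-biased mean gave 1 in place of 0. For the effect at day 28 minus day 7, the filter at the median and the male-biased mean gave 1 and the filter at the 75th percentile gave 2 in place of 0. For the effect at day 91 minus day 1 the male-biased mean gave 2 in place of 1. The causes were not tested.

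Leaving out single arrays gave 0 to 1 for control day 7 minus day 1, treated day 7 minus day 1 and the effect at day 7 minus day 1, 1 to 2 for treated day 28 minus day 7 and treated day 91 minus day 1, 0 to 2 for the effect at day 28 minus day 7, and 0 to 1 for the effect at day 91 minus day 1.

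Signs turned only for differences that were not called in the reported fit. With the male-biased mean as a covariate, Cyp2b9 turned to 0.19 (control day 7 minus day 1), 1.09 (treated day 7 minus day 1) and 1.59 (treated day 91 minus day 1). Cyp2b13 turned to 0.60, 0.72, -0.84 and 0.48 in controls (day 7 minus 1, 28 minus 7, 91 minus 28 and 91 minus 1). Cyp2b10 turned to 0.20 on the third probe set in controls (day 91 minus 1), to 0.19 and 0.17 in treated arrays on the second and the third (day 7 minus 1), to 0.052, 0.27 and 0.21 on the 3 probe sets (day 28 minus 7), to 0.28 and 0.23 on the latter 2 (day 91 minus 1), and to 0.027 on the third for the effect at day 91 minus day 1. With the spike-in covariate, Cyp2b10 turned to 0.076 on the second probe set and Cyp2b9 to 0.20 in controls (day 7 minus 1), Cyp2b13 to -0.018 in controls (day 91 minus 28), and the effects at day 7 minus day 1 to -0.21, -0.29 and -0.20 for Cyp2b10 and -0.60 for Cyp2b9. With array weights the second Cyp2b10 probe set turned to -0.035 in controls (day 91 minus 1).

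Leaving out single arrays turned these signs, with ranges from the lowest to the highest value: Cyp2b13 in controls from -1.17 to 0.084 (day 7 minus 1) and from -0.021 to 0.15 (day 91 minus 28), Cyp2b10 in controls (day 91 minus 1) from -0.076 to 0.26 on the first, -0.19 to 0.36 on the second and -0.35 to 0.17 on the third probe set, Cyp2b9 in treated arrays from -0.47 to 0.089 (day 7 minus 1), and the effect on the first Cyp2b10 probe set from -0.029 to 0.31 (day 7 minus day 1).

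An alternative chosen after seeing the data left day 1 control replicate 2 out of the gene lists. From control day 1 to day 7 it gave 2 in place of 5 called genes of CAR regulation, 3 in place of 5 of P450 supply, 2 in place of 8 female-biased and 0 in place of 7 male-biased genes; the other list counts at day 1 stayed within 1.5 times.

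No paired analysis was possible because the labels carry no replicate numbers or pairing. Signal limits Cyp2b13 controls, the Cyp2b9 controls of day 28 and some Cyp2b10 controls of day 28, which lie near the array medians, so a fall there could not be seen in full.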
